A study of Mus musculus with 14 samples.

Results

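The translation initiation factors of mouse oocytes are described here: 52 protein-coding genes whose symbols start with Eif1 to Eif6, out of 35389 genes in a table of 8 libraries and 35341 in a second table of 6 libraries. A gene was taken as a member when it was present in both tables and reached a TPM (a transcript level corrected for transcript length and library size) of at least 1 in 2 or more libraries of a table. The members comprise 5 Eif1 genes, 13 Eif2 genes, 14 Eif3 genes, 16 Eif4 genes, 3 Eif5 genes and Eif6. Of 55 protein-coding Eif symbols in both tables, 3 stayed below that level: Eif2ak2, Eif5a2 and Eif2s3y, the last listed at 0 in every library. The fit of each experiment tested 51 members, 50 of them in both; Eif1a was tested only in the 8-library table and Eif4ebp2 only in the 6-library table.

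The study overexpressed Rnaseh1, a nuclease that cuts RNA paired with DNA and so removes R-loops, in mouse oocytes. mCherry, a fluorescent protein, was overexpressed in the controls. In the first experiment, with 2 libraries per group, mCherry or Rnaseh1 was overexpressed in NSN oocytes and in SN oocytes, names that the field uses for a non-surrounded and a surrounded nucleolus. NSN chromatin is open and transcribed, while SN chromatin is condensed and transcription has largely stopped. In the second, here called the rescue experiment, the groups were mCherry, Rnaseh1, and Rnaseh1 with Supt6, an elongation factor of RNA polymerase II, again with 2 libraries each; the labels give no NSN or SN stage for these. No group was left without an overexpressed protein, and strain, age and the number of oocytes per library are not given in the sources used here. Because nothing states that the replicates came from separate animals, p-values measure the spread between these libraries, which may be technical.

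Translation in eukaryotes starts when eIF2, a GTPase of 3 subunits, brings the initiator tRNA to the small ribosomal subunit, where eIF1, eIF1A, eIF3 and eIF5 assemble around it. The mRNA is recruited through its cap by eIF4F, made of the cap-binding protein eIF4E, the RNA helicase eIF4A and the scaffold eIF4G. A fully grown oocyte makes little new RNA, and its maturation depends on translating stored mRNA, so that the mRNAs of these factors form part of the stock laid down during growth.

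A contrast within the family lay between a pair of related genes. Eif4a1 and Eif4a2 encode eIF4A helicases of 406 and 408 residues that are identical at 90.64% of aligned residues but at only 50.25% of bases in the third position of a codon. Over the 120 coding bases below they differ at 26 bases, 21 of them in the third position of a codon; capitals mark the bases that differ, and the stretches are from GENCODE M21 (coding positions 907 to 1026 of Eif4a1 and 913 to 1032 of Eif4a2).
Eif4a1: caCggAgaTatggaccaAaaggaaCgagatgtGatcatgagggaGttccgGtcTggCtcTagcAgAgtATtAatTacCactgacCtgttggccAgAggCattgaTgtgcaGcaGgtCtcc
Eif4a2: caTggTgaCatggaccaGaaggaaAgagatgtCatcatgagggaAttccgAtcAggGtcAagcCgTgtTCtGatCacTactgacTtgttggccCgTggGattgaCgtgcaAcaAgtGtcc
Such differences allow reads to be assigned to one gene or the other. Over the whole coding sequence, the third position of the codon is G or C in 57.64% of codons of Eif4a1 and 44.36% of Eif4a2.

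Promoter sequence was available for 40 of the 52 members, from RefSeq on GRCm38.p6 (250 bases before to 50 after the most upstream start). Their median GC content was 61.7%, against 52.7% for all 27025 promoters of the same length, and their median number of CpG dinucleotides was 24 against 7. The letters CCGGAAG, a form of the site read by ETS-family transcription factors, were present on either strand in 13 of 40 member promoters (32.5%) and in 9.14% of all promoters. TATAAA was present in 7.5% of the members' promoters and in 14.2% of all. The members were chosen as protein-coding genes that reached a minimum TPM, while the set of all promoters was not limited in this way. Promoters of other expressed genes were not compared, so whether these contrasts are particular to the members was not tested. The stretches below run from 100 bases before to 20 bases after the start and show the Eif4a pair, whose mRNAs moved in opposite directions in the rescue experiment, then Eif3l and Eif2b4, which fell, and Eif3m, which rose; capitals mark CCGGAAG or its complement CTTCCGG.
Eif4a1, chr11:69672404-69672523, minus strand: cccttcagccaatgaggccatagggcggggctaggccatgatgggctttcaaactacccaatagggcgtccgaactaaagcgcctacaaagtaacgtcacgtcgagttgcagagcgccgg
Eif4a2, chr16:23107368-23107487, plus strand: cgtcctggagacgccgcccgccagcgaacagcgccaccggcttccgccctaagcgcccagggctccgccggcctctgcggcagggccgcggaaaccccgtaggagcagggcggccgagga
Eif3l, chr15:79075123-79075242, plus strand: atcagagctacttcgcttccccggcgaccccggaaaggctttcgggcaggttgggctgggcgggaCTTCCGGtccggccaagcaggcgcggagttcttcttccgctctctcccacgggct
Eif2b4, chr5:31193120-31193239, minus strand: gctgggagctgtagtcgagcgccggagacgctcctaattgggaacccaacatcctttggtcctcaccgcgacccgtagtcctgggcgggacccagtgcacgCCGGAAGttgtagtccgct
Eif3m, chr2:105017008-105017127, minus strand: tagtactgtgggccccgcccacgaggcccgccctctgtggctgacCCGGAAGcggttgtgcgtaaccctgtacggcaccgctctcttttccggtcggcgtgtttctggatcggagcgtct
None of the 5 stretches shown holds more than one copy, and neither Eif4a promoter holds the letters anywhere in its window.

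The overexpressed genes followed the labels. Rnaseh1 lay between 81.0 and 136.7 TPM in the 6 mCherry libraries and between 229 and 2270.5 TPM in the 8 libraries in which it was overexpressed, the lowest being replicate 2 of NSN Rnaseh1. Supt6 was at 28.16 and 20.97 TPM where it was overexpressed and at most 7.27 TPM elsewhere. All 13 oocyte marker genes were at or above 1 TPM in every library. Their summed level was 6129 and 6526 TPM in the rescue Rnaseh1 libraries, against 19223 to 20410 TPM with mCherry and 18957 to 19923 TPM with Supt6. This sum also differed between replicates of the first experiment, at 8542 and 23263 TPM in SN mCherry and 15672 and 6572 TPM in NSN Rnaseh1. It was 16605 and 13311 TPM in NSN mCherry and 8006 and 7805 TPM in SN Rnaseh1. Markers of granulosa and cumulus cells summed to between 26.4 and 55.7 TPM, those of blood cells to at most 4.74 TPM and those of ovarian stroma to between 2.81 and 34.9 TPM. Stroma markers were at 33.1 and 34.9 TPM with mCherry in the rescue experiment. They were at 8.30 and 10.8 TPM with Rnaseh1 and at 32.8 and 34.4 TPM with Supt6. In each of the 6 rescue libraries only 2 of the 7 stroma genes reached 1 TPM, and Cdh5 and Col1a2 were at 0. Of the 12 granulosa and cumulus genes, 2 to 5 reached 1 TPM in each library, and Amh, Amhr2 and Foxl2 were at 0 throughout. The part of any of these marker sums in the results was not tested. In the first experiment, replicate 2 of NSN Rnaseh1 and replicate 2 of SN mCherry stood apart: the SD of the replicate difference over all genes was 1.28 and 1.05 on the log2 scale in these groups and 0.62 and 0.69 in the other two.

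In control oocytes of the rescue experiment the most abundant initiation factor mRNAs were Eif4e, at 801 and 789 TPM, then Eif5a, at 564 and 597 TPM, and Eif1, at 487 and 581 TPM, with Eif4a1 close behind at 503 and 517 TPM. The range of Eif1 overlapped those of Eif5a and Eif4a1. All members together made up 0.825% and 0.840% of the TPM in the mCherry libraries, 0.645% and 0.653% in the Rnaseh1 libraries and 0.844% and 0.870% in those with Supt6. The Rnaseh1 libraries lay below the other 4 without overlap. The summed Eif5 genes were at 1123 and 1118 TPM with mCherry and at 243 and 269 TPM with Rnaseh1, while the summed Eif3 subunits were at 1545 and 1508 TPM with mCherry and at 1735 and 1738 TPM with Rnaseh1.

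Comparing Rnaseh1 with mCherry in the rescue experiment asks what the enzyme alone does to these mRNAs. Of 51 members, 30 fell and 11 rose at an adjusted p below 0.05 (limma on log2(TPM + 1), Benjamini-Hochberg adjustment over all 12859 genes tested). Among all genes tested 46.2% fell and 20.3% rose, so in this fit the family's shares lay near a background in which most genes changed. The median log2 difference of the members was -0.68, against -0.52 for all genes. The balance moved with scaling: 26.8% of the members' calls were upward, 42.9% after centring each library on its median gene, 34.2% after quantile normalization and 47.4% after removing a trend with GC content. Among all genes, 4297 rose and 3894 fell after centring, 4223 and 3958 after quantile normalization, and 3599 and 3653 after GC correction. In the same order, medians were -0.10, -0.37 and -0.22 for the members and 0.06, 0.05 and -0.01 for all genes. After quantile normalization 13 members rose and 25 fell. Centring moved all log2 differences of this comparison up by 0.59, and quantile normalization moved them by a median of 0.45. Under all 16 alternative settings tried, 16 members fell and 8 rose. How many of all genes kept their call in every setting was not counted, so nothing particular to the members is read from this.

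By group, the Eif5 genes had a median log2 difference of -1.27 (2 of 3 fell, none rose), the Eif4 genes -0.87 (10 of 16 fell, 3 rose), the Eif2 genes -0.75 (7 of 13 fell, 2 rose) and the Eif3 genes -0.43 (7 of 14 fell, 6 rose). Of the Eif1 genes, 3 of 4 fell and none rose. The differences between these groups were not tested, and members of all 4 groups span an overlapping range.

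**Figure D1:**
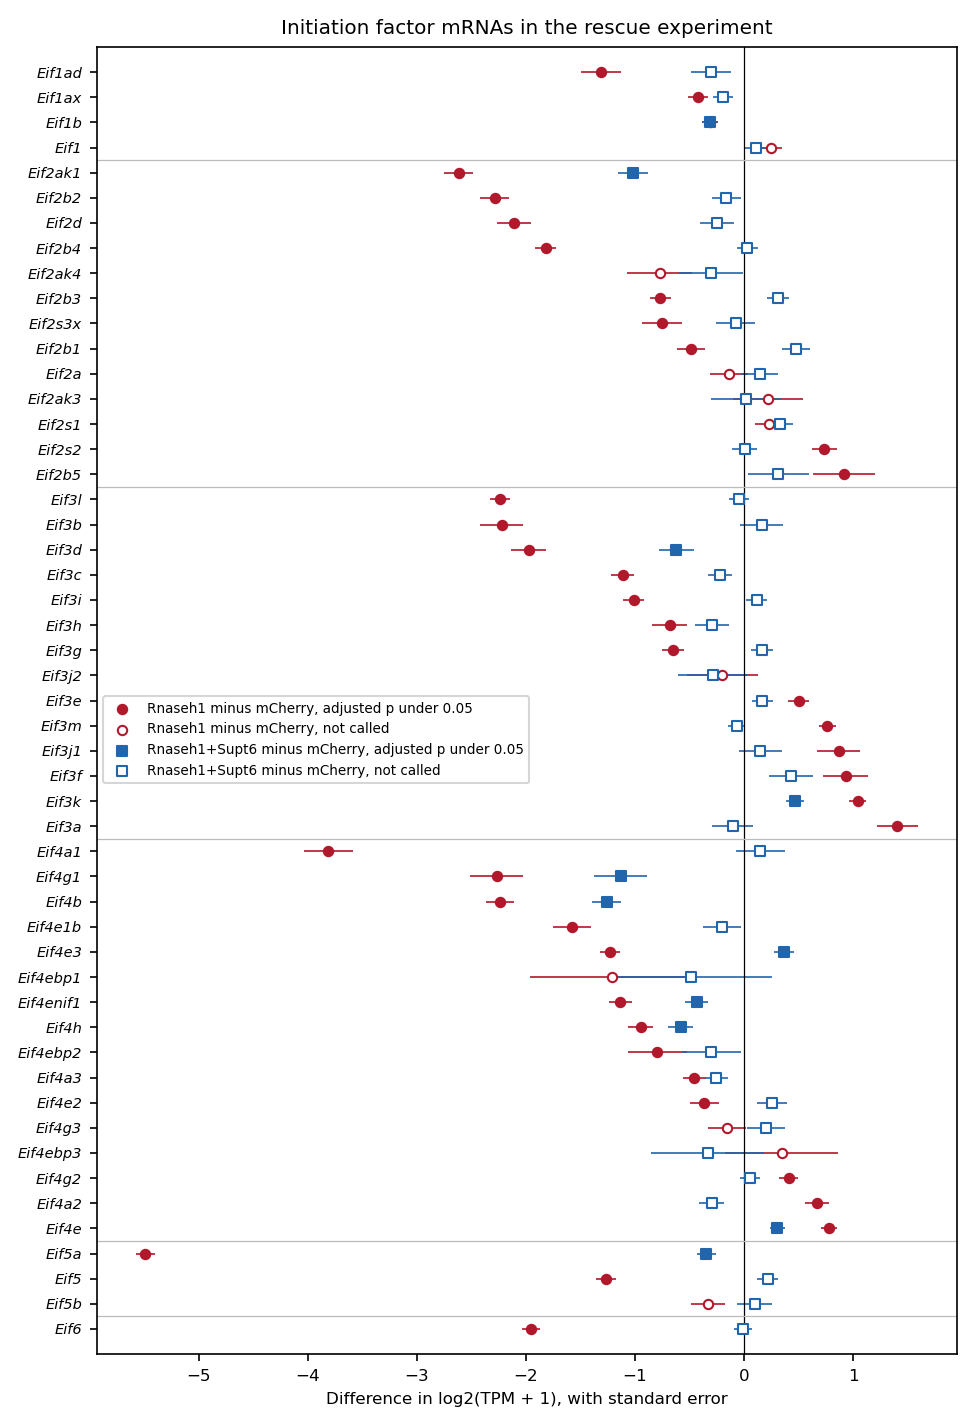
Difference in log2(TPM + 1) from mCherry for the 51 members tested in the rescue experiment, with standard errors; circles are Rnaseh1 and squares are Rnaseh1+Supt6, filled where the adjusted p is below 0.05, and lines part the Eif1 to Eif6 groups. With Rnaseh1 alone the members spread from -5.49 (Eif5a) to 1.41 (Eif3a), while with Supt6 added they lie between -1.26 (Eif4b) and 0.48 (Eif2b1).

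Among the Eif5 genes and Eif6, Eif5a stood out. It encodes the only protein known to carry hypusine and helps ribosomes through difficult stretches as well as in termination. Eif5a was at 564 and 597 TPM with mCherry, at 12.2 and 11.6 TPM with Rnaseh1, and at 444 and 469.9 TPM with Rnaseh1 and Supt6. The Rnaseh1 libraries were far below both other groups. Its log2 difference of -5.49 (SE 0.09, adjusted p = 4.27e-07) had the smallest p of all 12859 genes, ranking 1. With Supt6 added it was higher by 5.15 than with Rnaseh1 alone (adjusted p = 8.94e-07). It remained lower than mCherry by -0.34 (adjusted p = 0.0455). That call was lost under several settings, among them a pseudocount of 0.1, no filter on low values, centring and the replicate block.

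Eif5, the activator of the GTPase eIF2, was at 512 and 461 TPM with mCherry and at 188 and 216 TPM with Rnaseh1, a log2 difference of -1.27 (SE 0.10). It stood at 572 and 559 TPM with Supt6, above both other groups, but its log2 difference from mCherry there (0.22) was not called. Eif6, which keeps the large ribosomal subunit from joining too early, was at 445 and 452 TPM with mCherry, at 108.7 and 122 TPM with Rnaseh1 and at 438 and 455 TPM with Supt6. It fell by 1.95 (SE 0.08, adjusted p = 2.39e-06), and its levels with Supt6 overlapped those of mCherry. Eif5b, the GTPase of subunit joining, was at 47.2 and 59.7 TPM with mCherry and at 42.9 and 41.2 TPM with Rnaseh1, and its difference of -0.33 did not pass the test (adjusted p = 0.105).

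The Eif4 genes split along eIF4F. Eif4a1 was at 503 and 517 TPM with mCherry, at 46.7 and 26.6 TPM with Rnaseh1 and at 549 and 584 TPM with Supt6. Eif4a2 did the reverse, with 102 and 97.0 TPM in mCherry, 150.2 and 169 TPM in Rnaseh1 and 75.2 and 87.0 TPM with Supt6. Each gene's Rnaseh1 libraries were outside the range of the other 4, low for Eif4a1 and high for Eif4a2. Eif4a1 fell by 3.82 (SE 0.22, adjusted p = 8.39e-06) and Eif4a2 rose by 0.67 (SE 0.11, adjusted p = 0.00152), under every setting tried. Their ratio of TPM within a library was 4.92 and 5.33 with mCherry, 0.311 and 0.158 with Rnaseh1 and 7.31 and 6.71 with Supt6, so the more abundant of the pair changed with Rnaseh1. Eif4a3, the paralog that belongs to the exon junction complex, was at 407 and 417 TPM with mCherry and at 332 and 271 TPM with Rnaseh1; it fell by 0.46, and after GC correction its difference was 0.79.

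The helicase cofactors also fell. Eif4b, which stimulates eIF4A, was at 107.5 and 124.7 TPM with mCherry, at 24.04 and 23.41 TPM with Rnaseh1 and at 44.5 and 51.2 TPM with Supt6, intermediate in the last group. It fell by 2.24 (SE 0.13) with Rnaseh1 and was still lower than mCherry by -1.26 with Supt6 (adjusted p = 0.00358), the only member called against mCherry in that group under every setting tried. Eif4h, a related cofactor, was at 59.7 and 64.9 TPM with mCherry and at 30.9 and 32.7 TPM with Rnaseh1, a log2 difference of -0.95 that became 0.43 after GC correction.

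Of the scaffolds, Eif4g1 was low throughout, at 7.87 and 9.03 TPM with mCherry and at 0.74 and 1.20 TPM with Rnaseh1. It fell by 2.27 (SE 0.24) and reached 3.21 and 3.41 TPM with Supt6. Eif4g2, a homolog that lacks the eIF4E-binding part, was more abundant, at 104 and 112 TPM with mCherry and 144 TPM in both libraries with Rnaseh1, and rose by 0.41 (SE 0.09). Eif4g3 was at 12.8 and 13.5 TPM with mCherry and at 12.8 and 10.7 TPM with Rnaseh1, values that overlapped and did not pass the test (adjusted p = 0.461).

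The cap-binding proteins moved apart as well. Eif4e rose from 801 and 789 TPM to 1294 and 1434 TPM (log2 difference 0.78, SE 0.07) and was at 990.4 and 976 TPM with Supt6. Eif4e1b, the oocyte form thought to bind the cap weakly, fell from 76.9 and 107 TPM to 31.3 and 28.2 TPM (-1.58, SE 0.17) and was at 73.8 and 84.2 TPM with Supt6. With the GC trend removed its difference with Rnaseh1 was -0.33 and the call was lost. Eif4e3, an unusual cap-binding relative, went from 222 and 246 TPM to 102.9 and 95.9 TPM and to 298 and 306 TPM with Supt6, above both other groups. Among the eIF4E-binding inhibitors, Eif4ebp1 was at 5.14 and 4.14 TPM with mCherry and at 4.90 and 0 TPM with Rnaseh1, Eif4ebp2 at 1.69 and 1.79 against 0.35 and 0.85 TPM, and Eif4ebp3 at 3.91 and 1.72 against 2.47 and 5.21 TPM. All 3 were near the lower limit of what these libraries show. Eif4enif1, the eIF4E transporter found in oocyte storage granules, fell from 271 and 292 TPM to 139 and 117 TPM (-1.13, SE 0.10), with 207 and 208 TPM after Supt6.

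**Figure D2:**
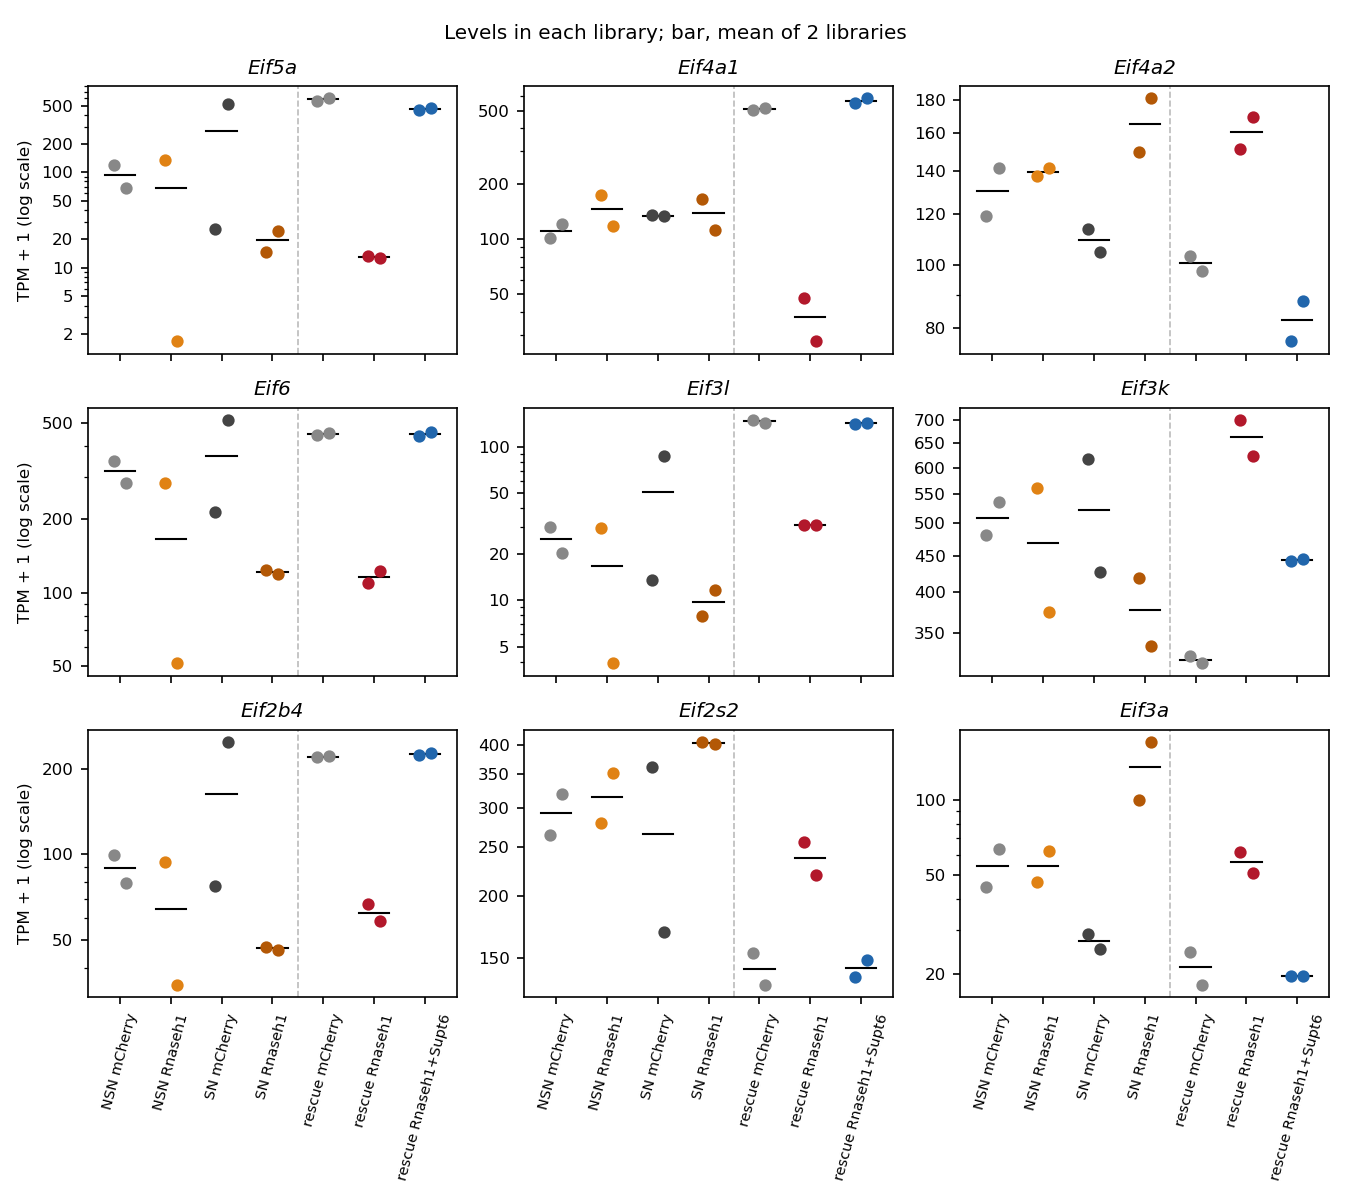
TPM + 1 (log scale) of 9 members in each of the 14 libraries; points are libraries, bars are the mean of 2, and the dashed line parts the first experiment from the rescue experiment, whose levels come from separately made tables. The rescue Rnaseh1 points lie apart from both other rescue groups for all 9 members, below them for Eif5a, Eif4a1, Eif6, Eif3l and Eif2b4 and above them for Eif4a2, Eif3k, Eif2s2 and Eif3a.

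Subunits of one complex did not move together. For eIF3, the large scaffold on the small ribosomal subunit, 8 members encode its core of PCI and MPN domain subunits: 5 rose (Eif3a, Eif3e, Eif3f, Eif3k and Eif3m) and 3 fell (Eif3c, Eif3h and Eif3l). Of the 6 other eIF3 genes, 4 fell (Eif3b, Eif3d, Eif3g and Eif3i), Eif3j1 rose and Eif3j2 was not called; this division was made after the values had been seen. With the GC trend removed, Eif3g (0.81) and Eif3i (0.33) were called in the other direction, and the calls of Eif3e, Eif3h and Eif3j1 were lost. Eif3j1 and Eif3j2 encode near-identical proteins, so the assignment of reads between them is uncertain.

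Eif3a, the largest core subunit, was at 23.6 and 17.1 TPM with mCherry, at 60.9 and 49.7 TPM with Rnaseh1 and at 18.6 and 18.7 TPM with Supt6. Its rise of 1.41 (SE 0.19, adjusted p = 0.000476) was the largest among the members. Eif3k, one of the smallest core subunits, was at 324 and 316 TPM with mCherry, at 699.6 and 623 TPM with Rnaseh1 and at 441 and 445 TPM with Supt6, in between. Eif3l, which pairs with Eif3k in the complex, went from 148 and 143 TPM to 30.1 and 30.0 TPM and back to 139.8 and 142 TPM. It fell by 2.24 (SE 0.09, adjusted p = 1.95e-06). Eif3b, which carries the RNA-binding and propeller domains that hold Eif3g and Eif3i, was at 16.3 and 15.9 TPM with mCherry, at 2.29 and 3.08 TPM with Rnaseh1 and at 18.8 and 17.5 TPM with Supt6, and fell by 2.22 (SE 0.20).

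Eif3m, which also joins the core, was at 264 and 268 TPM with mCherry, at 436 and 469 TPM with Rnaseh1 and at 251 and 257 TPM with Supt6. It rose by 0.76 (SE 0.08). Eif3d, a cap-binding subunit used by some mRNAs, was at 98.7 and 75.2 TPM with mCherry, at 19.9 and 22.4 TPM with Rnaseh1 and at 53.0 and 58.7 TPM with Supt6, where it stayed below mCherry. It fell by 1.98 (SE 0.16). Eif3f rose by 0.93 and Eif3c fell by 1.11. The ratio of Eif3b to Eif3a within a library was 0.689 and 0.931 with mCherry, 0.0376 and 0.0620 with Rnaseh1 and 1.01 and 0.935 with Supt6. Levels of the 14 eIF3 mRNAs already differed in control oocytes, from 5.13 to 316 TPM in replicate 2 of mCherry.

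The Eif2 genes hold eIF2 itself, its exchange factor eIF2B and the kinases that inhibit it. For eIF2, Eif2s1 (the alpha subunit, which the kinases phosphorylate) was at 173 and 134 TPM with mCherry and at 176 and 180.4 TPM with Rnaseh1, and its difference of 0.23 did not pass the test (adjusted p = 0.153). Eif2s2 (beta) rose from 152 and 131 TPM to 255 and 219 TPM (0.74, SE 0.12) and was at 137 and 147 TPM with Supt6. Eif2s3x (gamma, which binds GTP and the tRNA) fell from 30.4 and 36.3 TPM to 16.9 and 22.1 TPM (-0.75, SE 0.18), a call lost after centring, after quantile normalization and without replicate 2 of mCherry, and was at 29.2 and 33.8 TPM with Supt6.

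Of the 5 eIF2B subunits, 4 fell and 1 rose. Eif2b4 (delta) was at 218 and 221 TPM with mCherry, at 65.9 and 57.2 TPM with Rnaseh1 and at 222 and 226 TPM with Supt6, a fall of 1.82 (SE 0.10, adjusted p = 5.37e-06). With a trend against the GC content of transcripts removed, the difference of Eif2b4 was -0.22 and the call was lost. Eif2b2 (beta) went from 91.3 and 107.8 TPM to 18.8 and 20.2 TPM and to 94.2 and 83.4 TPM with Supt6, a fall of 2.29 (SE 0.13), which was -0.83 with the GC trend removed. Eif2b3 fell by 0.77 and Eif2b1 by 0.49, with Eif2b1 at 0.10 after centring and its call also lost with the GC trend removed and without replicate 1 of mCherry. Eif2b5 (epsilon, the catalytic subunit) was the least abundant at 3.64 and 3.36 TPM with mCherry, and rose to 5.64 and 9.83 TPM with Rnaseh1 (0.91, SE 0.28, adjusted p = 0.0236), a call lost without the filter on low values, without either mCherry library and without replicate 2 of Rnaseh1, where the difference was 0.56. The ratio of Eif2b2 to Eif2b5 was 25.1 and 32.1 with mCherry, 3.34 and 2.06 with Rnaseh1 and 21.3 and 17.4 with Supt6.

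Among the kinases, Eif2ak1, which responds to low heme, was at 70.5 and 79.0 TPM with mCherry, at 10.7 and 11.9 TPM with Rnaseh1 and at 34.9 and 37.9 TPM with Supt6. It fell by 2.62 (SE 0.14, adjusted p = 4.67e-06) and its Supt6 libraries lay between the other groups. Eif2ak4, which responds to amino acid shortage, was at 12.5 and 20.2 TPM with mCherry and at 7.15 and 11.0 TPM with Rnaseh1 (adjusted p = 0.0511), and Eif2ak3, which responds to stress in the endoplasmic reticulum, was at no more than 2.88 TPM in the 6 libraries. Eif2d, which can deliver tRNA without eIF2 and acts in recycling, fell from 54.3 and 61.5 TPM to 14.1 and 11.2 TPM (-2.11, SE 0.15).

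In the Eif1 group, Eif1 and Eif1b, whose proteins are identical at 92.04% of residues and guard start codon choice, were at 487 and 581 TPM and at 403 and 424 TPM with mCherry. With Rnaseh1 they were at 654 and 607 TPM and at 336 and 331 TPM. Eif1b fell by 0.31 (SE 0.07, adjusted p = 0.00712), while the 0.24 of Eif1 did not pass the test (adjusted p = 0.0704), and with centring the difference of Eif1b was 0.28. Eif1ad, a nuclear relative of eIF1A, fell by 1.31 from 19.9 and 18.2 TPM.

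**Figure D3:**
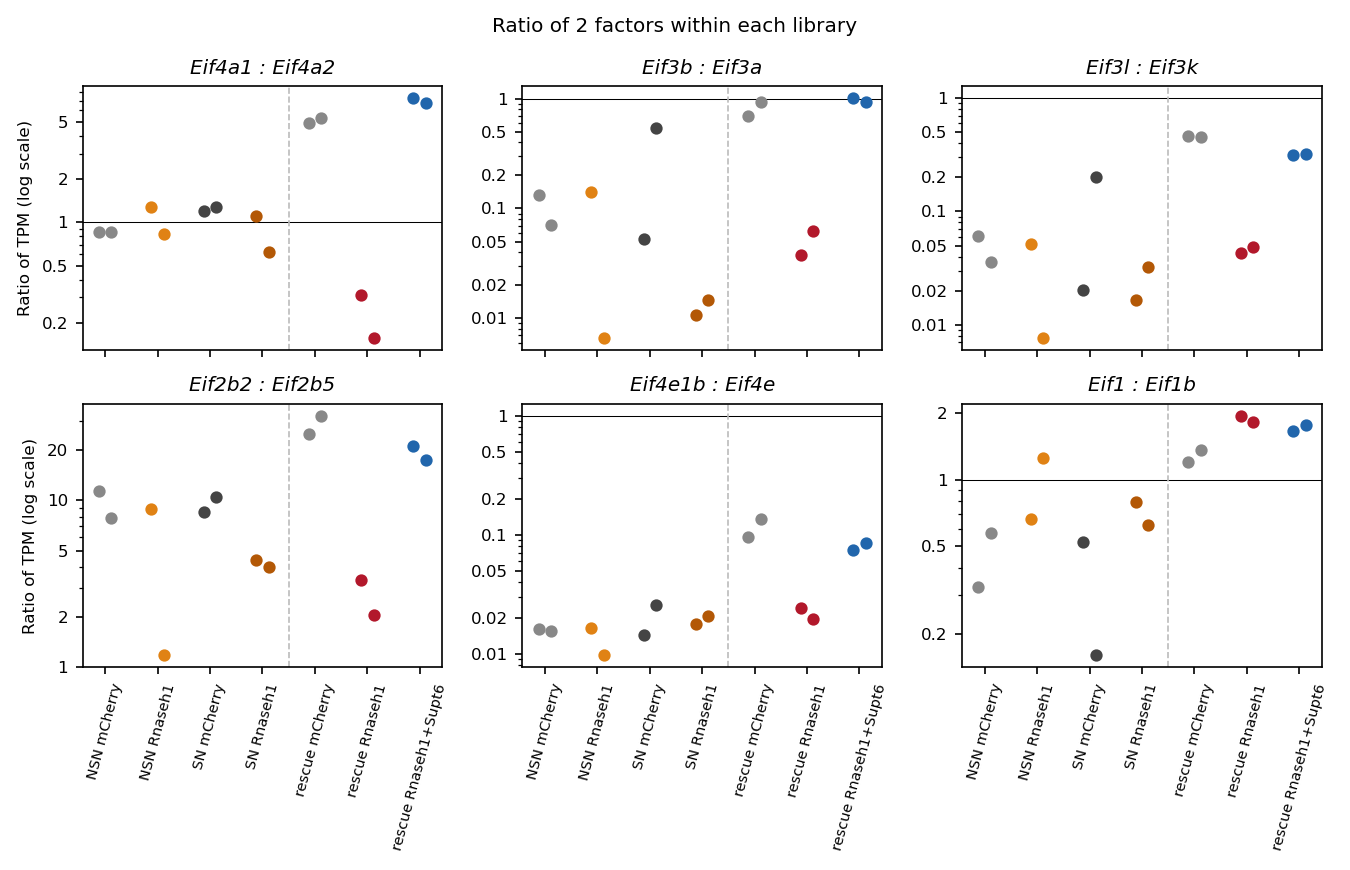
Ratio of TPM (log scale) of 6 pairs of members within each of the 14 libraries; the horizontal line, where in range, marks equal levels, and the dashed line parts the first experiment from the rescue experiment. Eif4a1 : Eif4a2 is 0.311 and 0.158 in rescue Rnaseh1 against 4.92 or more in the other 4 rescue libraries, while in the first experiment it lies between 0.619 and 1.27.

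Adding Supt6 to Rnaseh1 asks how far the levels go back. Rnaseh1 itself was at 2270 and 2017 TPM with Supt6 and at 1243 and 625 TPM without it. This log2 difference was 1.28 (SE 0.28, limma adjusted p = 0.00622). No group received Supt6 alone, so an effect of Supt6 cannot be told apart from one of the Rnaseh1 level. Against Rnaseh1 alone, 25 of 51 members rose and 9 fell; of all genes tested, 41.6% rose and 17.4% fell, and the medians were 0.49 for the members and 0.44 for all genes. Both comparisons share the Rnaseh1 libraries, so opposite signs in them are not independent. Of the 30 members that had fallen with Rnaseh1, 7 rose again with Supt6 but were still called lower than mCherry (Eif2ak1, Eif3d, Eif4b, Eif4enif1, Eif4g1, Eif4h and Eif5a), 17 rose with no call against mCherry, and Eif4e3 rose above it. Eif1b was not called against Rnaseh1 and was lower than mCherry, and Eif1ax, Eif3h, Eif4a3 and Eif4ebp2 were called in neither. Of the 11 that had risen, 9 fell with Supt6, among them Eif3a (-1.51), Eif4a2 (-0.97), Eif3m (-0.83) and Eif2s2 (-0.73), and Eif2b5 and Eif3f were not called. The same patterns were not counted among all genes that had fallen or risen, so the return is not read as particular to the members.

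Between Rnaseh1 with Supt6 and mCherry, 3 members rose (Eif3k by 0.47, Eif4e3 by 0.37 and Eif4e by 0.31) and 8 fell, by 0.31 (Eif1b) to 1.26 (Eif4b). Among all genes tested 5.71% rose and 7.6% fell, and the median was -0.05 for the members and -0.04 for all genes. These counts move with the settings, from 0 to 5 for the rises and from 1 to 9 for the falls, and a difference that was not called is not shown to be absent. For Eif4a1 the difference was 0.15 (SE 0.22), for Eif6 -0.01 (SE 0.08) and for Eif3l -0.05 (SE 0.09).

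Members that rose with Rnaseh1 in the rescue experiment had a lower median GC content of the transcript than those that fell. This median was 43.9% for the 11 that rose (range 40.3% to 54.1%), 52.8% for the 30 that fell (39.7% to 57.3%) and 49.2% for the 10 not called. Across the 51 members Spearman's rank correlation of GC content with the log2 difference was -0.46, over genes that share the same libraries and are not independent replicates. With a trend against GC content over all genes removed, 28 of the 41 calls kept their direction, 6 were called in the other direction (Eif1b, Eif3g, Eif3i, Eif4a3, Eif4e2 and Eif4h) and 7 were lost (Eif2b1, Eif2b4, Eif3e, Eif3h, Eif3j1, Eif4e1b and Eif4ebp2). Among those that kept their direction, the log2 difference was -4.34 for Eif5a, -3.52 for Eif4a1 and 1.16 for Eif3a. It was -0.34 for Eif6 (-1.95 as reported), -1.08 for Eif3l (-2.24), 0.37 for Eif4a2 (0.67) and 2.30 for Eif3k (1.04). The others of these whose size changed by more than 1.5 times were Eif1ad (-0.71), Eif1ax (-0.97), Eif2b2 (-0.83), Eif3b (-0.84), Eif3d (-0.52), Eif3c (-0.34), Eif4b (-1.39), Eif4g1 (-0.73), Eif4enif1 (-0.37), Eif2d (-1.08), Eif3m (0.39), Eif3f (1.49) and Eif2b5 (1.86). Eif1 (1.09), Eif2ak3 (1.60), Eif4g3 (1.12) and Eif5b (-0.55), not called as reported, were called with the trend removed. The part of GC content in the result was not otherwise tested. Of the 13 members with CCGGAAG in the promoter window, 12 fell and Eif3m rose. Of the 27 without it, 12 fell, 8 rose and 7 were not called. Among the 12 with it that fell, Eif1b, Eif3g and Eif4e2 were called in the other direction with the GC trend removed. The calls of Eif2b4 and Eif4ebp2 were lost. Over all genes tested 46.2% fell, and the share among all genes with CCGGAAG was not counted. This split was looked at after the values were known and is given without a test.

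**Figure D4:**
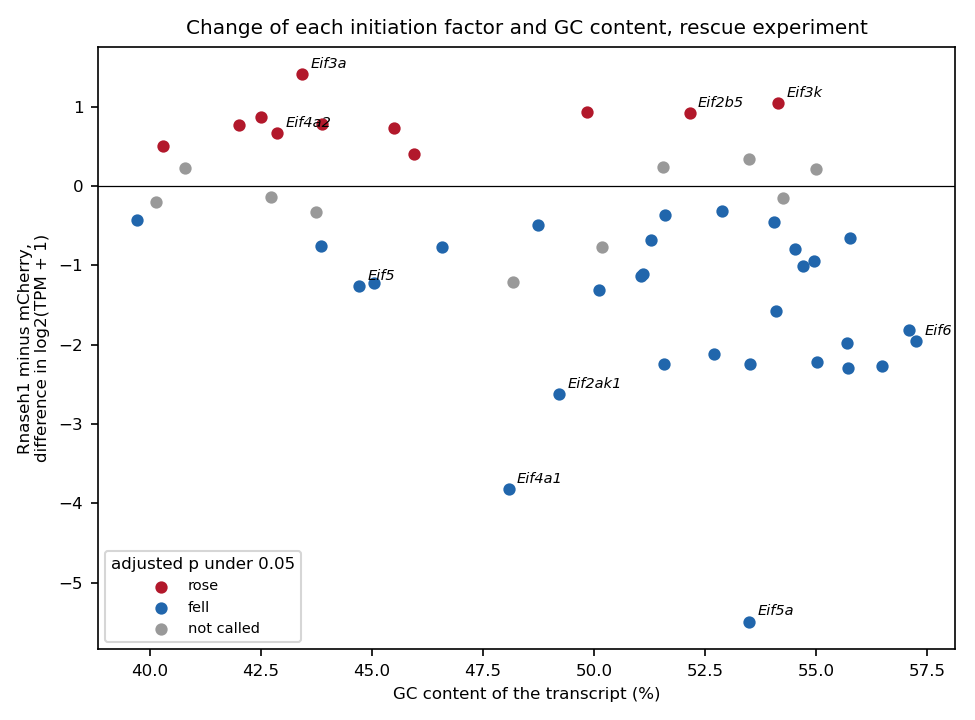
Difference in log2(TPM + 1) between Rnaseh1 and mCherry in the rescue experiment against GC content of the transcript (%), one point per member (51), coloured by call. Most of the members that rose lie below 46% GC, Eif3f, Eif2b5 and Eif3k being the exceptions, and Eif5 and Eif4a1 fell with GC contents of 44.7% and 48.1%.

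In the first experiment no gene passed the test in any comparison: the share called was 0% for Rnaseh1 against mCherry in SN oocytes, for the same in NSN oocytes, for SN against NSN with either protein, and for the difference between the effects in both stages. At an unadjusted p below 0.05 limma gave 3 members (of 859 genes) in SN oocytes, 0 members (of 353) in NSN oocytes, 2 (of 328) for SN against NSN with mCherry, 4 (of 584) with Rnaseh1 and 2 (of 288) for the difference between the effects. The values of the members are therefore given as a description. The median of the members was -0.33 in SN oocytes (all genes -0.22) and -0.36 in NSN oocytes (all genes -0.29). With both libraries that stood apart left out, these medians were -0.09 in SN and -0.06 in NSN oocytes.

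In SN oocytes Eif3a had the smallest p of the members, at 28.1 and 24.3 TPM with mCherry and 98.5 and 169 TPM with Rnaseh1. Its log2 difference was 2.26 (SE 0.40, adjusted p = 0.433), and the groups did not overlap. In NSN oocytes Eif3a was at 43.9 and 62.5 TPM with mCherry and 45.6 and 61.3 TPM with Rnaseh1, a difference of 0.01. Without the 2 libraries that stood apart, which leaves 1 library in each of their groups, the differences were 2.16 in SN and -0.20 in NSN oocytes. The difference between the stages was 2.25 (SE 0.57), with an unadjusted p of 0.00481 and an adjusted p of 1, so it was not called. Eif2ak3 was at 2.36 and 3.68 TPM with mCherry and at 11.6 and 16.9 TPM with Rnaseh1 in SN oocytes (1.92, SE 0.45, adjusted p = 0.610), and at 4.15 and 6.11 against 4.34 and 6.10 TPM in NSN oocytes. Eif2b4 was at 76.3 and 247 TPM with mCherry and at 46.3 and 45.3 TPM with Rnaseh1 in SN oocytes (-1.56, SE 0.65, adjusted p = 0.610); the 247 TPM came from the SN mCherry library that stood apart, and without it the difference was -0.72.

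The libraries did not overlap for 10 members that were higher and 21 that were lower with Rnaseh1 in SN oocytes; for all genes the shares were 18.9% and 31.7%. In NSN oocytes 2 members were higher and 10 lower without overlap, against 10.3% and 22.6% of all genes. These counts include the libraries that stood apart. The smallest p there belonged to Eif2b2, at 74.0 and 63.7 TPM with mCherry and at 54.0 and 7.03 TPM with Rnaseh1 (-1.73, SE 0.83), followed by Eif3g, at 223 and 191 against 170.7 and 43.4 TPM, and Eif2b1, at 709 and 596 against 571 and 122 TPM. For all 3 the low value came from replicate 2 of NSN Rnaseh1, the library that stood apart, and the adjusted p was 0.755. Without it the differences were -0.34 for Eif2b2, -0.27 for Eif3g and -0.19 for Eif2b1. Leaving out replicate 1 of that group instead gave a median of -0.78 for the members and -0.61 for all genes. That comparison rests on the outlying library alone.

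The lowest and the highest level of Eif5a in the first experiment came from the 2 libraries that stood apart. It was at 119 and 67.2 TPM in NSN mCherry, at 134 and 0.68 TPM in NSN Rnaseh1, at 24.2 and 522 TPM in SN mCherry and at 13.4 and 23.2 TPM in SN Rnaseh1, with an SE of 2.04 for each difference. With both left out, the difference between Rnaseh1 and mCherry was -0.43 in SN and 0.58 in NSN oocytes. Eif6 varied likewise, at 348 and 281, 280.2 and 50.2, 214 and 511, and 123 and 118 TPM in the same order. Eif4a1 showed no such spread, with 100.4 and 120 TPM in NSN mCherry, 173 and 117 TPM in NSN Rnaseh1, 135 and 132 TPM in SN mCherry and 163 and 112 TPM in SN Rnaseh1. Its difference was 0.02 (SE 0.36) in SN oocytes and 0.37 (SE 0.36) in NSN oocytes. Eif4a2 was at 113 and 104 TPM in SN mCherry and at 149 and 180.1 TPM in SN Rnaseh1, without overlap (0.59, SE 0.30, adjusted p = 0.610).

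Between the stages, Eif1a, a copy of the eIF1A gene, had the smallest p. It was at 6.10 and 4.70 TPM in NSN mCherry and at 0.33 and 0.78 TPM in SN mCherry (-2.05, SE 0.43, adjusted p = 1), and at 5.73 and 7.96 against 1.04 and 1.18 TPM in the Rnaseh1 libraries (-1.88, SE 0.43, adjusted p = 0.829). The NSN libraries were higher than the SN libraries in both, while Eif1ax, the other gene for eIF1A, was at 78.9 and 83.5 TPM in NSN mCherry and at 114 and 105 TPM in SN mCherry. Because the 2 genes are related in sequence, reads could be split between them.

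Around the initiation factors, other translation genes were examined as fixed lists in the rescue experiment, against a background in which 46.2% of all genes fell and 20.3% rose; nothing particular to a list is read from its counts. Of 15 elongation and termination factors 8 fell and 5 rose with Rnaseh1: Eef2, the translocase, fell by 3.55 while the release factor genes Etf1 and Gspt1 rose by 1.001 and 1.51. Dohh, which completes hypusine on eIF5A, fell by 4.01. Of 8 poly(A)-binding proteins and partners 5 fell and 3 rose, among them Pabpc4 (-3.95) and Paip1 (3.17), which binds both Pabpc1 and eIF3. Of 10 genes of mTORC1 and MNK signalling to the cap, 8 fell and Rheb, the activator of mTORC1, rose by 1.48. Of 8 genes of the integrated stress response, the pathway downstream of the Eif2ak kinases, 7 fell and none rose, including the transcription factor Atf4 (-2.55). Of 10 initiation and recycling factors without an Eif symbol 4 fell and 3 rose, with Pdcd4, an inhibitor of eIF4A, up by 2.77. The medians of these lists were -0.67, -0.88, -1.97, -1.59 and -0.15, against -0.52 for all genes. In the same order, their median transcript GC content was 52.0%, 52.7%, 54.4%, 55.2% and 44.9%, against 49.6% for all genes. These lists were not examined with the GC trend removed or under the other alternative settings. Of 4 ribosomal protein genes analysed here (Rpsa, Rplp0, Rplp1 and Rplp2), 2 fell and none rose. The list was meant to take ribosomal protein genes by symbol, but only these 4 were in it when fitted. They do not stand for the other ribosomal protein genes, which were not examined.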

How the data were processed

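Libraries were made from polyA RNA with SuperScript II and KAPA HiFi amplification, per the labels' protocols. The submitters' processing notes name the build mm10 and the tools RSEM 1.3.3, DESeq2, Trim Galore 0.6.7 and STAR 2.7.0d, with no roles given. The authors deposited TPM values in 2 tables without counts, so sequencing depth is unknown and no counting interval is given. Symbols for the 35389 Ensembl identifiers of the first came from GENCODE M21, 34611 by versioned identifier and 708 with the version ignored; 34257 of 35341 symbols of the second were found there.

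Genes with TPM of at least 1 in 2 or more libraries of a table (12736 and 12859) were fitted with limma 3.58.1 (R 4.3.3) on log2(TPM + 1), with all groups of a table in one fit, a trend on mean level and Benjamini-Hochberg adjustment at 0.05; a fold on this scale understates the change of low genes. The fit was tested on simulated data. Folds of TPM were compared only within a table. Values per library are given for members chosen by the smallest p in each Eif group and comparison and by role. The members and lists were chosen with earlier results of these data known. Alternatives were pseudocounts of 0.1 and 5, no filter or a TPM of 5, centring (genes of mean TPM 10 or more), quantile normalization, removal of a GC trend, rescaling without the overexpressed genes, groups fitted alone, a replicate block and leaving out libraries. The difference of replicate 1 from replicate 2 had correlations of -0.51 to 0.17 between groups. The -0.51 lay between NSN Rnaseh1 and SN mCherry, whose replicates differed in opposite directions. Rank correlations of this difference with transcript GC content were 0.43 and -0.43 in these groups and -0.05 to 0.10 in the others.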

Additional observations from a re-analysis of the deposited data

How the results depend on the processing

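Every alternative named above was run, with results taken for the members and for all genes but not for the lists of other translation genes. The cause of each change was not tested. For Rnaseh1 against mCherry in the rescue experiment, 18 members were called higher with the GC trend removed (11 as reported). Over all genes 3599 were called higher in that setting (2608 as reported). Among members called as reported or under the alternative, the log2 differences that changed sign were, after centring, Eif1ax 0.16, Eif1b 0.28, Eif2a 0.45, Eif2b1 0.10, Eif4a3 0.13 and Eif4e2 0.22; after quantile normalization, Eif2a 0.51, Eif4e2 0.23 and Eif4g3 0.61; and with the GC trend removed, Eif1b 0.75, Eif3e -0.0061, Eif3g 0.81, Eif3h 0.11, Eif3i 0.33, Eif4a3 0.79, Eif4e2 0.49, Eif4ebp2 0.52, Eif4g3 1.12 and Eif4h 0.43. For Rnaseh1 with Supt6 against Rnaseh1, 16 members were lower after centring and 17 with the GC trend removed (9 as reported). Over all genes these counts were 3855 and 3180 (2235 as reported). Among members called in either way, signs changed there after centring for Eif1ax -0.29, Eif2s1 -0.42, Eif4a3 -0.31 and Eif4h -0.15; after quantile normalization for Eif4h -0.14; and with the GC trend removed for Eif3e 0.058, Eif3g -0.31, Eif4a3 -0.79, Eif4e2 -0.10, Eif4g1 -0.029, Eif4g3 -0.66 and Eif4h -0.72. For Rnaseh1 with Supt6 against mCherry, members called higher numbered 1 without the filter, 1 after quantile normalization and 5 after centring (3 as reported), and 0 to 5 when a library was left out; those lower numbered 5 with a pseudocount of 0.1, 3 without the filter, 4 after centring and 2 with the GC trend removed (8 as reported), and 1 to 9 when a library was left out. The low ends came from leaving out an mCherry or a Rnaseh1+Supt6 library. Over all genes, those higher numbered 412 without the filter, 841 after quantile normalization and 921 after centring (734 as reported). Those lower numbered 656 with a pseudocount of 0.1, 515 without the filter, 809 after centring and 493 with the GC trend removed (977 as reported).

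In the first experiment the count of members called lower in NSN oocytes was 0 to 7 when a library was left out, 7 being without replicate 1 of NSN Rnaseh1. Without that replicate the median difference between Rnaseh1 and mCherry in NSN oocytes was -0.78 for the members and -0.61 for all genes. All genes thus shifted down as well, and nothing particular to the members is read from the 7. With both libraries that stood apart left out, Eif5a was lower in SN than in NSN oocytes under Rnaseh1 (-2.85). The medians there were -0.39 for the members and -0.29 for all genes. With the replicate number as a block, 11 members rose and 30 fell with Rnaseh1 in the rescue experiment (all genes 2602 and 5915). With Supt6 against mCherry 2 rose and 6 fell (all genes 733 and 850). Against Rnaseh1 26 rose and 9 fell with Supt6 (all genes 5300 and 2235). No gene was called in the first experiment with this block, and the samples share only a number. Where an arm keeps 1 library, it is assumed to vary like the others. Depth is unknown, so levels near 0 cannot be told from missed detection.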
